A study of Mus musculus with 6 samples.

Results

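Small leucine-rich proteoglycans (SLRPs) are secreted proteins built from a short chain of leucine-rich repeats, most of which carry sulfated sugar chains. They bind collagen fibrils and set their diameter and spacing, and they hold growth factors such as TGF-beta in the matrix. In the heart they come mainly from fibroblasts and other interstitial cells, and set free from the matrix they can act on receptors of the innate immune system. The genes examined were the 8 named Dcn, Bgn, Lum, Fmod, Ogn, Prelp, Aspn and Omd, taken by gene name from a table of 30914 genes. All 8 were present once and all 8 passed the filter on low values.

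The study asked whether tectochrysin (Tec), a plant flavonoid, changes the heart of mice made hypertrophic with angiotensin II (Ang II), the peptide hormone of the renin-angiotensin system. RNA was sequenced from the heart in 3 mice per group, named Ang II and Ang II + Tec, all of them male wild-type C57BL/6J mice aged 8 weeks. Every mouse carried an osmotic pump that released 1 μg/kg/min of Ang II over 4 weeks, and the Ang II + Tec group was also injected with Tec at 5 mg/kg each day during the last 2 weeks. No library of a mouse without Ang II was analysed here, so each comparison is between Ang II with Tec and Ang II without it. Levels are given as FPKM (fragments per kilobase of transcript and of sequencing output), a unit per length in which genes can be compared. FPKM do not give the total number of reads, so errors are given as the spread between mice.

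The libraries did not fall into their groups. The distance between a pair of libraries was taken as the root mean square difference of log2(FPKM + 1) over the 13089 tested genes. It was 0.26 between Ang II replicates 1 and 2. Ang II replicate 3 lay at 0.49 and 0.61 from these, but at 0.30, 0.41 and 0.26 from Ang II + Tec replicates 1, 2 and 3. Atrial transcripts also differed in a way that the groups do not explain. Myl7, the atrial myosin light chain, was at 419, 332 and 0 FPKM in Ang II replicates 1 to 3 and at 0, 1039.8 and 1.58 FPKM in Ang II + Tec replicates 1 to 3. The share of FPKM from the mitochondrial genome was 41.3%, 40.15% and 48.9% in Ang II replicates 1 to 3 and 51.3%, 49.6% and 52.5% in Ang II + Tec replicates 1 to 3, lowest in Ang II replicates 1 and 2. Whether the libraries hold the same parts of the heart, and whether Ang II replicate 3 matches its label, was not tested, and each difference between groups below is subject to this. The results of the 8 genes, and the counts of the gene lists, are therefore given with and without Ang II replicate 3, and with the libraries that hold Myl7 above 100 FPKM as a term in the fit, which was chosen after seeing the data.

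None of the 8 SLRP genes was differentially expressed between the groups (0 of 8 in limma, at an adjusted p under 0.05 with a log2 fold change of 1 or more in either direction), where 0.16% of all tested genes were (21 genes). At an unadjusted p under 0.05, Lum, Ogn and Aspn were lower with Tec (3 of 8), beside 16.5% of all tested genes. All 8 fitted differences were below 0, as were 80% of those of all tested genes, and that of Omd turned to 0.039 after quantile normalization. The median log2 fold change was -1.11 for the 8 genes and -0.17 for all tested genes, a gap of -0.94. Leaving out Ang II replicate 3 widened that gap to -1.47, while it was -0.63 when Ang II replicate 2 was left out and -0.61 with the Myl7 term. Rescaling each library by its median of ratios moved the median of all genes to -0.01 and that of the 8 to -0.90, a gap of -0.89. After rescaling to genes outside the mitochondrial genome the median of the 8 was -1.09. The shares over all genes depended on scaling. With the median of ratios, 52.9% of all tested genes were lower (8 of the 8), 8.93% were lower at an unadjusted p under 0.05 (Lum and Aspn, 2 of 8), and 11.5% were lower without overlap (1 of 8). After quantile normalization these shares were 46.1% (7 of 8), 7.85% (2 of 8) and 10.2% (1 of 8). Ogn had an unadjusted p of 0.0521 with the former and 0.0641 with the latter in limma. Without rescaling, Aspn alone had all 3 Ang II + Tec libraries below all 3 Ang II libraries (1 of 8), a pattern found in 18.9% of all tested genes. In bulk tissue, fewer cells of a type and less RNA per cell cannot be told apart.

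These counts rested on Ang II replicate 3. Leaving it out keeps only the Ang II libraries in which the genes were high. Without it, 6 of the 8 genes passed the limits in limma (Bgn, Lum, Fmod, Ogn, Prelp and Aspn), beside 4.26% of all tested genes. The groups then did not overlap for 7 of the 8, beside 53.7% of all tested genes. Without Ang II + Tec replicate 2 they did not overlap for 2 of the 8 (Lum and Aspn), beside 44.3%. Without any one of the other 5 libraries, 0 of the 8 passed the limits. With Myl7 above 100 FPKM as a term, again 0 passed, and Bgn, Lum, Ogn and Aspn were lower at an unadjusted p under 0.05 (4 of 8), beside 18.6% of all tested genes. In that fit Prelp and Omd had differences above 0, at 0.13 and 0.11.

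**Figure D1:**
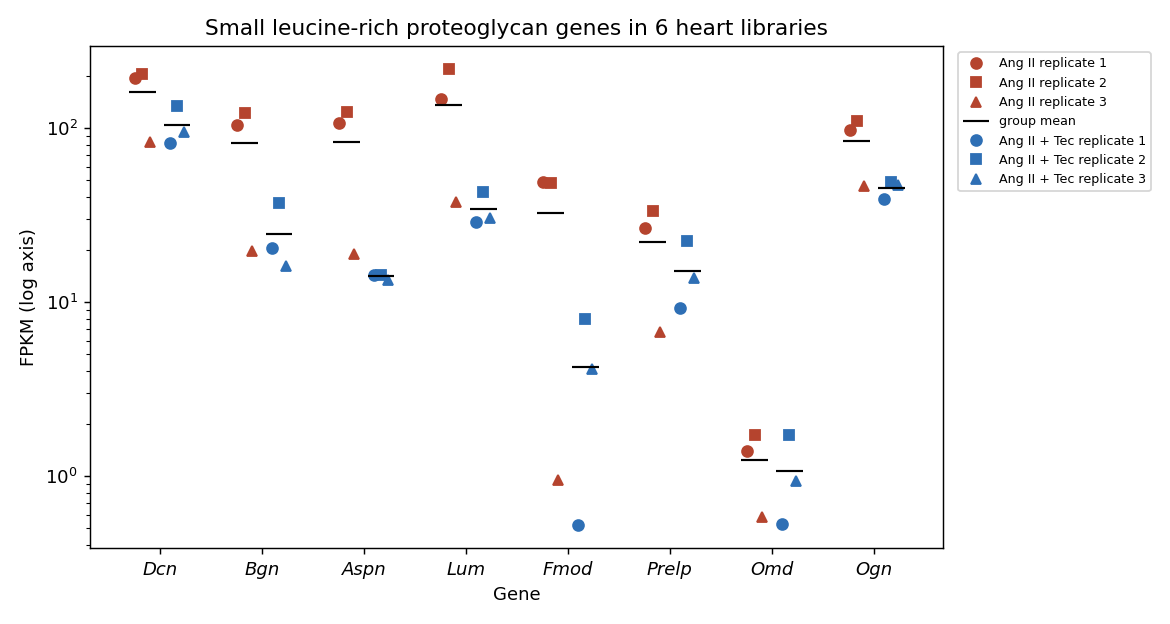
FPKM of each SLRP gene on a log axis, with 1 point per library, red for Ang II, blue for Ang II + Tec, and a black line at the group mean. Ang II replicates 1 and 2 are the highest points for every gene except Omd, whose highest value of 1.72 FPKM is shared with Ang II + Tec replicate 2, and Ang II replicate 3 sits in or near the range of the Ang II + Tec libraries.

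Decorin, biglycan and asporin form the branch of the family with the closest sequences. Dcn (ENSMUSG00000019929, plus strand of chr10:97479609-97518143) encodes decorin, which binds collagen fibrils and TGF-beta. Its level was 194, 205 and 82.9 FPKM in Ang II replicates 1 to 3 and 81.6, 134 and 95.3 FPKM in Ang II + Tec replicates 1 to 3. Ang II replicate 3 was thus within the Ang II + Tec range, and the groups overlapped. The means were 161 ± 67.6 FPKM with Ang II and 104 ± 27.2 FPKM with Ang II + Tec (SD, n = 3 each). Its log2 fold change came to -0.55 (SE 0.36), with an adjusted p of 0.397 in limma. Without Ang II replicate 3 it was -0.97 with an adjusted p of 0.0141 in limma, short of the limit on its size. It was smaller, at -0.24, with the Myl7 term, and at -0.36 and -0.32 once Ang II replicate 1 or 2 was left out.

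Bgn (ENSMUSG00000031375, plus strand of chrX:73483602-73495933) encodes biglycan, a close relative of decorin that in soluble form is a ligand of Toll-like receptors. It measured 104, 122 and 19.7 FPKM with Ang II and 20.5, 36.9 and 16.2 FPKM with Ang II + Tec. Ang II replicates 1 and 2 were above every other library, and Ang II replicate 3 was under Ang II + Tec replicates 1 and 2. The group means were 81.7 ± 54.5 and 24.5 ± 10.9 FPKM (SD, n = 3 each). The log2 fold change of -1.42 (SE 0.67) had an adjusted p of 0.293 in limma, and without Ang II replicate 3 it was -2.23 with an adjusted p of 0.00483. It was -0.84 with the Myl7 term (adjusted p = 0.221 in limma) and -0.95 once Ang II replicate 2 was left out.

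Aspn (ENSMUSG00000021388, plus strand of chr13:49544443-49567565) encodes asporin, named for its run of aspartates, which carries no sugar chain of the usual kind and binds collagen and TGF-beta. Its values were 107, 124 and 18.9 FPKM with Ang II and 14.4, 14.3 and 13.4 FPKM with Ang II + Tec. The Ang II + Tec libraries lay close together, with Ang II replicate 3 just above them and the other Ang II libraries far higher. The mean was 83.3 ± 56.4 FPKM against 14.0 ± 0.54 FPKM (SD, n = 3 each), 5.94 times as high with Ang II. The log2 fold change was -2.10 (SE 0.64, 95% interval -3.60 to -0.60), at an unadjusted p of 0.0126 and an adjusted p of 0.221 in limma. It was -2.95 (adjusted p = 3.4e-05) without Ang II replicate 3 and -1.67 (adjusted p = 0.189) with the Myl7 term in limma, and its adjusted p over the 17 alternatives ran from 3.4e-05 to 0.65.

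Lumican, fibromodulin, prolargin and osteomodulin form the branch that bears keratan sulfate or no chain. Lum (ENSMUSG00000036446, plus strand of chr10:97565128-97572703) encodes lumican, which limits the thickness of collagen fibrils. It was at 148, 219 and 37.7 FPKM with Ang II and at 28.7, 42.9 and 30.6 FPKM with Tec added. The groups overlapped through Ang II replicate 3, which was below Ang II + Tec replicate 2. Means were 135 ± 91.5 and 34.1 ± 7.69 FPKM (SD, n = 3 each). On the log2 scale the fold change was -1.65 (SE 0.59), at an unadjusted p of 0.025 and an adjusted p of 0.234 in limma. Leaving out Ang II replicate 3 gave -2.39 with an adjusted p of 0.00156, leaving out Ang II replicate 2 gave -1.14, and the Myl7 term gave -1.19 (adjusted p = 0.195 in limma). Its unadjusted p was over 0.05 without any one of Ang II replicates 1 and 2 and Ang II + Tec replicates 1 and 3.

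Fmod (ENSMUSG00000041559, plus strand of chr1:134037254-134048277) encodes fibromodulin, which shares a binding site on collagen with lumican and guides cross-linking. It spanned the widest range of the 8, with 48.7, 48.0 and 0.95 FPKM with Ang II and 0.52, 8.02 and 4.13 FPKM with Ang II + Tec. Ang II replicate 3 and Ang II + Tec replicate 1, both with Myl7 at 0, were the lowest libraries. The fold between the highest and the lowest library was 93.7, against 2.51 for Dcn. The log2 fold change was -2.03 with an SE of 1.29 and a 95% interval from -5.04 to 0.99 (adjusted p = 0.387, limma), an estimate that the spread within both groups leaves wide. It was -3.58 without Ang II replicate 3 and -0.97 with the Myl7 term, and -1.24, -1.25 and -1.31 once Ang II replicate 1, Ang II replicate 2 or Ang II + Tec replicate 1 was left out.

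Prelp (ENSMUSG00000041577, minus strand of chr1:133910304-133921414) encodes prolargin, which ties collagen to heparan sulfate of basement membranes. It stood at 26.8, 33.2 and 6.74 FPKM with Ang II and at 9.24, 22.4 and 13.7 FPKM with Ang II + Tec. Here Ang II replicate 3 was the lowest of all 6 libraries. Its fitted log2 fold change was -0.35 (SE 0.57, adjusted p = 0.714 in limma), -1.02 once Ang II replicate 3 was left out and 0.052 once Ang II replicate 2 was, so its direction depended on single libraries. Omd (ENSMUSG00000048368, plus strand of chr13:49582462-49592822) encodes osteomodulin, known from bone matrix. It was low in every library, at 0.53 to 1.72 FPKM beside a filter limit of 0.5 FPKM. Its FPKM were 1.40, 1.72 and 0.58 with Ang II and 0.53, 1.72 and 0.94 with Ang II + Tec, with full overlap and a log2 fold change of -0.12 (SE 0.27). At such levels the log2(FPKM + 1) scale understates a fold change.

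Ogn (ENSMUSG00000021390, plus strand of chr13:49608046-49624501) encodes osteoglycin, also called mimecan, from a separate branch with fewer repeats. It was at 97.0, 110.1 and 46.3 FPKM with Ang II and at 39.1, 48.9 and 47.1 FPKM with Tec added. Ang II replicate 3 fell between the Ang II + Tec libraries, and the other Ang II libraries were above all of them. The means were 84.5 ± 33.7 and 45.1 ± 5.21 FPKM (SD, n = 3 each). The log2 fold change was -0.81 (SE 0.31), at an unadjusted p of 0.0338 and an adjusted p of 0.245 in limma, and -1.19 (adjusted p = 0.00244) without Ang II replicate 3. It was -0.58 with the Myl7 term (adjusted p = 0.221 in limma) and -0.57 once Ang II replicate 2 was left out. Its unadjusted p was 0.0363 after rescaling to genes outside the mitochondrial genome, but over 0.05 with the median of ratios, with quantile normalization and without any one library other than Ang II replicate 3.

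**Figure D2:**
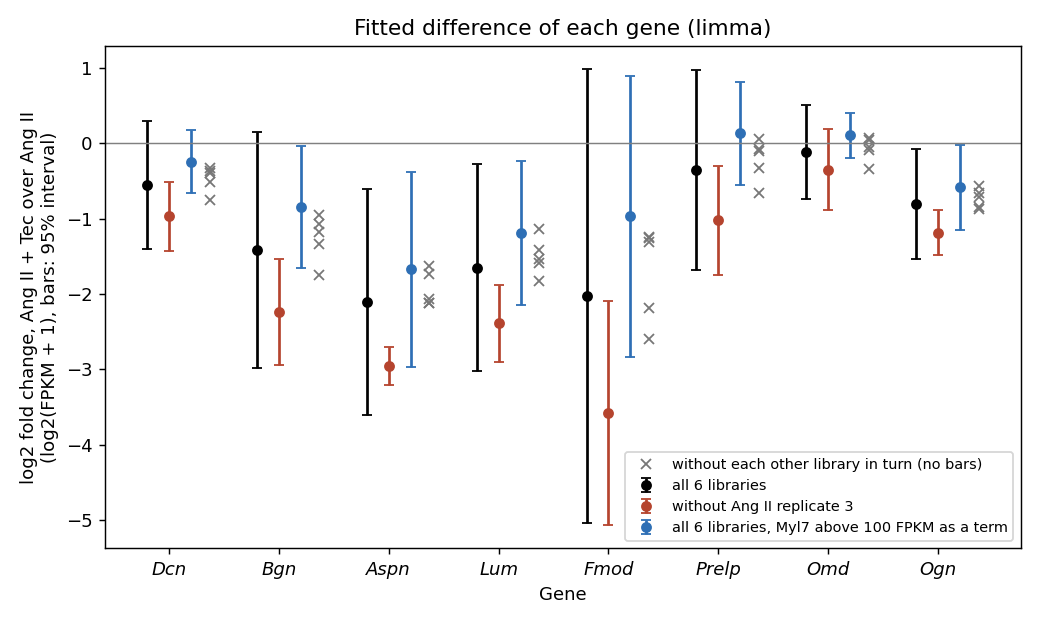
Log2 fold change of each SLRP gene, Ang II + Tec over Ang II, from all 6 libraries (black), without Ang II replicate 3 (red) and with Myl7 above 100 FPKM as a term (blue), with bars for the 95% interval of limma, and crosses for the fits without each of the other libraries. The black intervals of Lum, Ogn and Aspn lie below 0, and the blue points of Prelp and Omd lie above it, at 0.13 and 0.11.

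The genes differed in level as well as in their difference between groups. In the Ang II + Tec group Dcn was the most abundant, and its lowest library (81.6 FPKM) was above the highest of Ogn (48.9 FPKM). Ogn and Lum (34.1 ± 7.69 FPKM) came next and overlapped. They were followed by Bgn, which overlapped Lum, and then by Prelp (15.1 ± 6.68 FPKM) and Aspn. Prelp overlapped both Bgn and Aspn, while Bgn stayed above Aspn. These overlaps are between libraries, and within each Ang II + Tec library Ogn was above Lum, Lum above Bgn and Bgn above Prelp. Fmod (4.22 ± 3.75 FPKM) and Omd (1.06 ± 0.60 FPKM) were lowest (SD, n = 3 each). In the Ang II group the spread was wider for every gene except Omd. There Dcn and Lum did not differ beyond it, nor did Ogn, Aspn and Bgn, nor Fmod (32.6 ± 27.4 FPKM) and Prelp (22.2 ± 13.8 FPKM). Lum exceeded Dcn in Ang II replicate 2 only.

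Summed over the 8 genes, FPKM were 727, 863 and 214 in the Ang II libraries and 195, 309 and 221 in the Ang II + Tec libraries. The sum of Ang II replicate 3 lay within the Ang II + Tec range. The makeup of that sum also varied. Decorin took 26.7%, 23.8% and 38.8% of it with Ang II and 41.9%, 43.4% and 43.1% with Ang II + Tec. Asporin took 14.7%, 14.4% and 8.83% with Ang II and 7.39%, 4.62% and 6.06% with Ang II + Tec. The share of decorin was thus lowest, and that of asporin highest, in the libraries with the largest sums. Lumican made up 20.4%, 25.4% and 17.6% with Ang II and 14.8%, 13.9% and 13.8% with Ang II + Tec. The ratio of Ogn to Dcn varied less, from 0.37 to 0.56 over the 6 libraries, while that of Fmod to Dcn ran from 0.0064 to 0.25. Shares within a sum depend on each other, and no test was made of them.

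**Figure D3:**
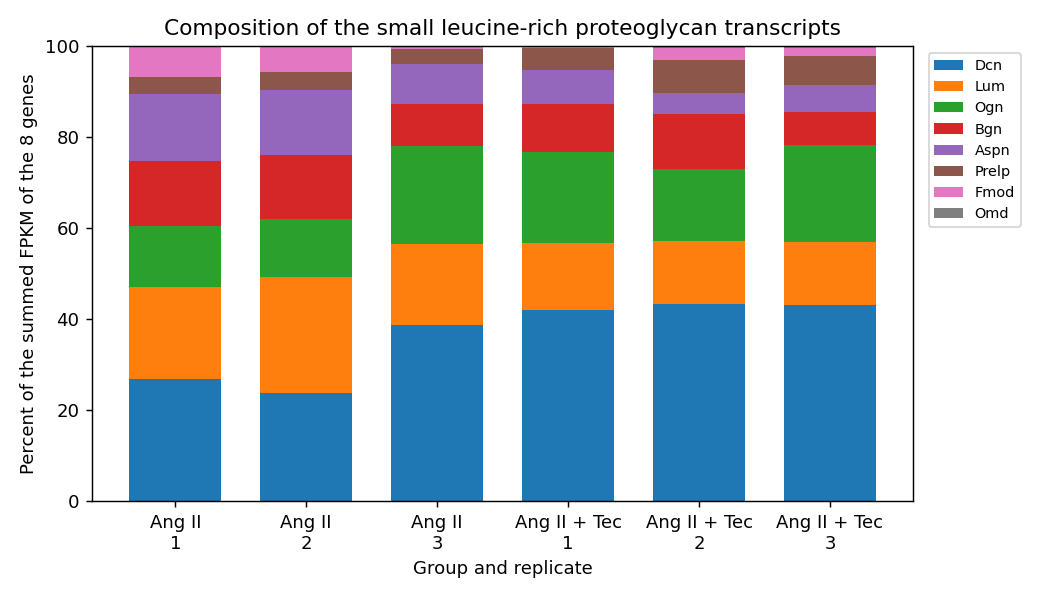
Stacked bars of the percent that each of the 8 SLRP genes contributes to their summed FPKM, with 1 bar per library. The Dcn segment is 26.7% and 23.8% in Ang II replicates 1 and 2 and between 38.8% and 43.4% in the other libraries.

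Several of the genes are neighbours in the genome. Coordinates are those of the deposited table, and for all 8 genes they equal GENCODE release M21 on GRCm38. Aspn, Omd and Ogn lie in a row on the plus strand of chromosome 13, with 14897 bases between Aspn and Omd and 15224 between Omd and Ogn, and a further family gene, Ecm2, stands 11654 bases before Aspn. The log2 fold changes of Aspn, Omd and Ogn were -2.10 (SE 0.64), -0.12 (SE 0.27) and -0.81 (SE 0.31). Omd was near the filter limit, where the scale understates a fold change, and differences between these genes were not tested. The whole row sits within the span of Cenpp, a centromere gene on the minus strand. Its exons share 7 bases with those of Aspn and 0 with those of Omd and Ogn, and it measured 0.40 to 0.93 FPKM. Whether the counting used strand is not given in the sources used here, so reads of the shared bases cannot be told apart. On chromosome 10, Dcn and Lum lie 46985 bases apart, followed by Kera and Epyc, and on chromosome 1 Optc stands 3132 bases from Prelp. Kera and Optc stayed under 0.6 FPKM in every library.

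**Figure D4:**
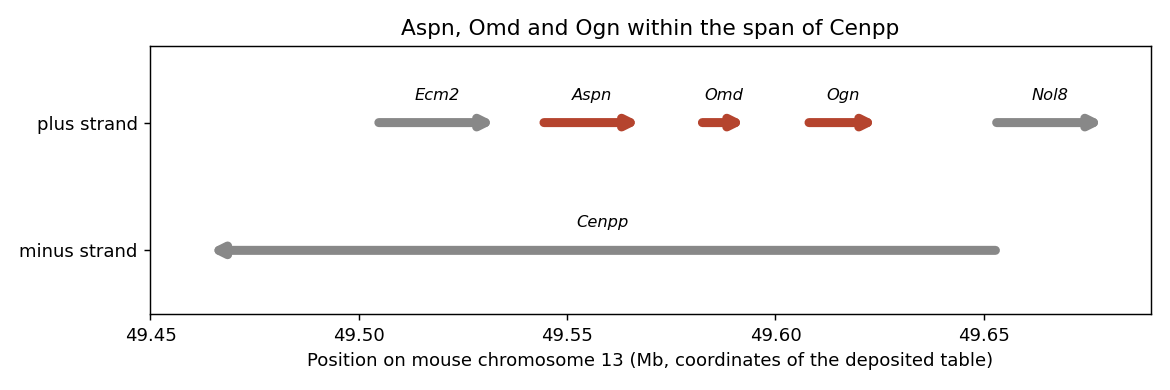
Map of part of mouse chromosome 13, with position in Mb on the horizontal axis and strand on the vertical axis, SLRP genes in red and other genes in grey, and arrowheads in the direction of transcription. Aspn, Omd and Ogn stand in a row on the plus strand inside the span of Cenpp on the minus strand.

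Sequence before the transcription start was taken for the members found in the RefSeq promoter table (build GRCm38.p6). It lists Prelp, Fmod, Aspn, Omd, Ogn and Bgn (6 of 8), and not Dcn and Lum. The 250 bases before the start were searched on both strands for the letters TATAAA of a TATA box, TGANTCA of an AP-1 motif, CATTCC of a TEAD motif, CCAAT of the box of that name and GGGCGG of an Sp1 motif. The TATA letters were in 2 of the 6 (Aspn and Ogn) and in 12.97% of the 27025 promoters of that length, and the AP-1 letters in 0 of 6 and 6.87%. The TEAD letters were in 1 of 6 (Ogn) and 12.6%, the CCAAT letters in 2 of 6 (Aspn and Prelp) and 34.5%, and the Sp1 letters in 1 of 6 (Bgn) and 32.9%. The stretches of the chromosome 13 neighbours are shown because these genes stand side by side, with fitted differences of unlike size that did not pass the limits. They are chr13:49544193-49544442 for Aspn, chr13:49582212-49582461 for Omd and chr13:49607765-49608014 for Ogn, all on the plus strand, 5′ to 3′, with matches in capitals.
Aspn: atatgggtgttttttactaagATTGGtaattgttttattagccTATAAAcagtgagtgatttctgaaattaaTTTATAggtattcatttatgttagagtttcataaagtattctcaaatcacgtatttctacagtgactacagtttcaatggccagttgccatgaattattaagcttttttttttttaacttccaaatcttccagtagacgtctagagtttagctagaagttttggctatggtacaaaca
Omd: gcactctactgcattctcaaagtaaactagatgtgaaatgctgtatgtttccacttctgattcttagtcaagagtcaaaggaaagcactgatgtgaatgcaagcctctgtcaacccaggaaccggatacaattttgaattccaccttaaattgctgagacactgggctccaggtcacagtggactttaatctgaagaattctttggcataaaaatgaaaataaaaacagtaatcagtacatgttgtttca
Ogn: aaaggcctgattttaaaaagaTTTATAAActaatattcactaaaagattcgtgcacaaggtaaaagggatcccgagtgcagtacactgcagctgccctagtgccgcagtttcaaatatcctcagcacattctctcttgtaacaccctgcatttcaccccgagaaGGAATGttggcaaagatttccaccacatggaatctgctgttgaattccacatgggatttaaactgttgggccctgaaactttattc
G and C made up 30.0% of the stretch of Aspn, 38.4% of that of Omd and 42.0% of that of Ogn. In Aspn the capitals mark CCAAT letters from position -229 and TATA letters from -207 and -178, counted from the start of transcription. In Ogn they mark TATA letters on both strands from -229 and -227, which overlap, and TEAD letters from -86. A match describes letters and not a site in use.

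Collagens that SLRPs bind were also examined. Of 10 such genes 9 were tested, and 0 were differentially expressed, but all 9 were lower with Tec at an unadjusted p under 0.05 in limma (16.5% of all tested genes), with a median log2 fold change of -1.75. Col3a1, a fibrillar collagen of young scar, was at 140, 207 and 18.9 FPKM with Ang II and at 9.71, 16.7 and 9.63 FPKM with Ang II + Tec. Without Ang II replicate 3 all 9 passed the limits, beside 4.26% of all tested genes, and with the Myl7 term 0 did, with 9 lower at an unadjusted p under 0.05 beside 18.6%. With the median of ratios 9 were lower at that p, beside 8.93%. The median of the 9 was -2.57 without Ang II replicate 3 and -1.24 with the Myl7 term, beside -0.24 and -0.10 for all tested genes. Col1a1, the main chain of collagen I, was at 82.7, 100.4 and 7.09 FPKM and at 4.20, 8.06 and 3.83 FPKM, and Col1a2, its partner chain, had a log2 fold change of -2.33 (SE 0.81). The ratio of Dcn to Col1a1 was 2.35, 2.04 and 11.7 in the Ang II libraries and 19.4, 16.6 and 24.9 in the Ang II + Tec libraries. In this ratio Ang II replicate 3 stood between the other Ang II libraries and the Ang II + Tec libraries.

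Other genes of the family and the enzymes that build the sugar chains had list medians from -0.40 to -0.30, where that of the 8 was -1.11. Most tested genes of these lists were at a few FPKM, where the log2(FPKM + 1) scale understates a fold change, as for Omd. The SLRP genes other than Omd were at higher levels, so these medians are not on equal terms. How much of the difference comes from the scale was not tested. The difference itself was not tested either, and single genes of these lists lay further below 0 than Dcn, Prelp and Omd. Their counts at an unadjusted p under 0.05 stand beside the 16.5% of all tested genes that were lower at that p. Of 10 other SLRP genes 5 were tested, 0 of them at an unadjusted p under 0.05, with a median of -0.35. Ecm2 had a log2 fold change of -0.62 (SE 0.34), Epyc of -0.75 (SE 0.48), Podn of 0.32 (SE 0.50) and Chad of 0.10 (SE 0.88). Chad, chondroadherin, was at 3.72, 4.47 and 0.08 FPKM with Ang II and 0, 7.56 and 3.02 FPKM with Ang II + Tec, so its highest library was Ang II + Tec replicate 2. Of the enzymes of the linker that joins chain to protein, 5 of 6 were tested, 2 were lower at an unadjusted p under 0.05, and the median was -0.32. These 2 were B3galt6, at -0.32 (SE 0.095), and B3gat3, which adds the last sugar of the linker, at -0.42 (SE 0.17). Xylt2, which starts the linker, had -0.36 (SE 0.17) and Fam20b, its kinase, -0.16 (SE 0.12), and neither passed that p. Of 16 enzymes of chondroitin and dermatan sulfate 13 were tested, with 2 lower at that p and a median of -0.40. Chpf, a chain polymerizing factor, had -0.87 (SE 0.42), Dse, the epimerase that makes dermatan sulfate, -0.85 (SE 0.33), Csgalnact2 -0.27 (SE 0.21) and Chst14 -0.48 (SE 0.20). Of 7 enzymes of keratan sulfate 4 were tested, with 1 lower and a median of -0.30. B3gnt2 had -0.85 (SE 0.35), B4galt1 -0.37 (SE 0.23) and B4galt4 -0.23 (SE 0.12). In all of these lists 0 genes were differentially expressed. Without Ang II replicate 3 the limits were passed by 2 of the 5 other SLRP genes, 0 of the 5 linker enzymes, 2 of the 13 chondroitin and dermatan sulfate enzymes and 0 of the 4 keratan sulfate enzymes, beside 4.26% of all tested genes. With the Myl7 term 0 passed in each, and the numbers lower at an unadjusted p under 0.05 were 0, 2, 3 and 0, beside 18.6%, with 1 of the other SLRP genes higher, beside 2.97%. With the median of ratios 0, 1, 1 and 0 were lower at that p, beside 8.93%. In the same order the list medians were -0.67, -0.34, -0.69 and -0.47 without Ang II replicate 3. They were -0.08, -0.25, -0.20 and -0.20 with the Myl7 term.

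Proteases, ligands and receptors were treated in the same way, with 0 genes differentially expressed in each list and the same 16.5% of all tested genes as background. Of 10 proteases that cleave SLRPs 6 were tested, with 1 lower at an unadjusted p under 0.05 and a median of -0.61. Mmp2, a gelatinase, was at 52.0, 50.0 and 12.9 FPKM with Ang II and 14.3, 22.9 and 13.2 FPKM with Ang II + Tec. Mmp14, the membrane protease that activates it, had a log2 fold change of -1.002 (SE 0.33), Bmp1, which trims proforms, of -0.65 (SE 0.30) and Adamts1 of -0.58 (SE 0.38). Of 11 growth factors bound by SLRPs 9 were tested, 3 lower at that p, with a median of -0.68. Ccn2 was at 155, 457 and 17.9 FPKM and at 48.4, 134 and 34.2 FPKM, Tgfb3 had a log2 fold change of -1.09 (SE 0.49), Igf1 of -1.23 (SE 0.46) and Pdgfb of -0.34 (SE 0.12). Of 14 receptors of soluble SLRPs 12 were tested, 3 lower at that p, with a median of -0.46. Itgb1 had -0.50 (SE 0.23), Lrp1 -0.47 (SE 0.34), Kdr -0.33 (SE 0.14), Cd44 -0.69 (SE 0.33) and Cd14, a coreceptor of Toll-like receptors, -0.66 (SE 0.23). Of 16 other proteoglycans 14 were tested, 2 lower at that p, with a median of -0.25, including Gpc1 at -0.11 (SE 0.14), Sdc2 at -0.56 (SE 0.26), Hspg2, perlecan, at -0.46 (SE 0.16), Vcan at -0.73 (SE 0.41) and Prg4, lubricin, at -1.30 (SE 0.79). Without Ang II replicate 3 the limits were passed by 3 of the 6 proteases, 5 of the 9 growth factors, 1 of the 12 receptors and 3 of the 14 proteoglycans, beside 4.26% of all tested genes. With the Myl7 term 0 passed in each, and 2, 4, 2 and 2 were lower at an unadjusted p under 0.05, beside 18.6%, with 1 growth factor and 1 proteoglycan higher, beside 2.97%. With the median of ratios 1, 2, 2 and 2 were lower at that p, beside 8.93%. In the same order the list medians were -1.08, -1.16, -0.68 and -0.45 without Ang II replicate 3. They were -0.34, -0.32, -0.31 and -0.09 with the Myl7 term.

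Markers of other cells of the heart were examined beside the SLRP genes. All 6 markers of activated fibroblasts were lower with Tec at an unadjusted p under 0.05 in limma (0 differentially expressed, median -2.39), beside 16.5% of all tested genes. Their summed FPKM were 264, 341 and 23.9 with Ang II and 17.3, 23.1 and 12.3 with Ang II + Tec, and the most abundant was Postn, periostin, at 130, 178 and 10.5 FPKM and at 6.13, 11.3 and 4.84 FPKM. Of 7 general fibroblast markers 1 was lower at that p (median -0.35), with sums of 516, 490 and 311 and of 373, 722 and 459, most of it Gsn, which muscle also expresses, and the highest sum in Ang II + Tec replicate 2. The ratio of Dcn to the fibroblast receptor Pdgfra was 33.0, 32.0 and 25.2 with Ang II and 24.7, 30.0 and 27.6 with Ang II + Tec. That of Aspn to Pdgfra was 18.1, 19.3 and 5.73 and then 4.35, 3.20 and 3.88. All 6 macrophage markers were lower at that p (median -0.91), with sums of 163, 208 and 116 and of 65.5, 72.9 and 80.04 and C1qb the most abundant. The sum of Ang II replicate 3 was above those of all Ang II + Tec libraries, as was, narrowly, its sum of activated fibroblast markers. Singly, 4 of the 6 macrophage markers were lower without overlap, beside 18.9% of all tested genes, while Adgre1 and Fcgr1 overlapped. Without Ang II replicate 3 the limits were passed by 5 of 6 activated fibroblast, 3 of 7 fibroblast and 5 of 6 macrophage markers, beside 4.26% of all tested genes. With the Myl7 term 0 passed, and 5, 2 and 4 were lower at an unadjusted p under 0.05, beside 18.6%, with 1 fibroblast marker higher, beside 2.97%. With the median of ratios 5, 1 and 3 were lower, beside 8.93%, and again 1 fibroblast marker higher, beside 6.73%. In the same order the list medians were -3.48, -0.60 and -1.23 without Ang II replicate 3. They were -1.74, -0.18 and -0.75 with the Myl7 term. The part of these cells in the results was not tested.

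Atrial markers summed to 6205, 10253 and 256 FPKM with Ang II and to 906, 5056 and 128 FPKM with Ang II + Tec, with 4 of 5 tested and 0 of them at an unadjusted p under 0.05. Their median log2 fold change was -1.82, and -4.30 without Ang II replicate 3. Nppa, a natriuretic peptide gene that ventricles under load also express, made up 86.8% of these sums over the 6 libraries and was at 906 FPKM in Ang II + Tec replicate 1, so the sums are mainly a measure of Nppa. Myl7 was at 0 in Ang II replicate 3 and Ang II + Tec replicate 1. Fmod stood at 0.95 and 0.52 FPKM in these, and at 48.7, 48.0 and 8.02 FPKM in the libraries with Myl7 above 100 FPKM. Ang II + Tec replicate 3, with Myl7 at 1.58 FPKM, had Fmod at 4.13 FPKM. Valve and tendon-like markers (6 of 8 tested, 0 at that p, median -0.49) summed to 70.04, 86.4 and 16.9 with Ang II and to 13.6, 53.2 and 33.8 with Ang II + Tec, led by Cytl1. Adipocyte markers summed to 13.6, 37.6 and 1.21 and to 0.32, 101.5 and 3.44, led by Cfd, with 4 of 5 tested and a median of 0.06. Skeletal muscle markers were led by Tnnt3, at 42.4 FPKM in Ang II replicate 2 and at most 6.91 FPKM elsewhere, with 1 of 5 tested at -1.77. Red blood cell markers (5 tested, median -0.66) were led by Hbb-bs and smooth muscle markers (5 tested, median -0.01) by Tagln. The medians were -0.16 for pericyte markers, led by Rgs5, -0.11 for endothelial markers, led by Egfl7, and 0.13 for ventricular markers, led by Myl2. The median was 0.20 for epicardial markers, led by Upk3b. Several medians changed in sign or size with the setting. With the median of ratios they were 0.05 for pericyte, 0.098 for endothelial and 0.14 for smooth muscle markers. Without Ang II replicate 3 they were -0.055 for epicardial and -0.34 for adipocyte markers. With the Myl7 term they were 0.11 for smooth muscle, 1.03 for adipocyte and 0.39 for atrial markers. In these marker lists 0 genes were differentially expressed, and at an unadjusted p under 0.05 in limma 1 endothelial marker (Egfl7) was lower, beside 16.5% of all tested genes, and 1 ventricular marker (Myh6) higher with Tec, beside 2.09%. With the median of ratios 0 endothelial markers were lower at that p and 1 ventricular marker was higher, beside 6.73%. Without Ang II replicate 3 the limits were passed by 3 of 6 valve and tendon-like markers, 2 of 5 red blood cell markers and the 1 skeletal muscle marker tested, beside 4.26% of all tested genes, and by 0 in the atrial, adipocyte, smooth muscle, pericyte, endothelial, ventricular and epicardial lists. Medians without Ang II replicate 3 were -0.84 for valve and tendon-like markers, -1.20 for red blood cell markers and -3.04 for the skeletal muscle marker. With the Myl7 term 0 passed in each of these lists. At an unadjusted p under 0.05 in that fit, 1 valve and tendon-like and 1 endothelial marker were lower, beside 18.6%, 1 atrial and 1 epicardial marker were higher, beside 2.97%, and 0 ventricular markers were higher. Myl7, which sets this term, is itself in the atrial list. The atrial count and median of that fit thus depend on the list's own values and are not a separate result. No marker of these lists was at 0 in all 6 libraries, and apart from the Myl7 term the part of these tissues was not tested.

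The genes most like the SLRPs over the 6 libraries were found by the root mean square difference between their centred log2(FPKM + 1) and the median centred profile of the 8. Among 5044 genes with a mean of at least 5 FPKM, the 10 closest were P3h3, Vim, Mxra8, Tgfb3, Dap, Dpysl3, Ltbp3, Fhl1, Tspo and Fam114a1, at differences of 0.11 to 0.17. P3h3, a gene of collagen hydroxylation and the closest, was at 10.4, 13.5 and 3.14 FPKM with Ang II and 2.52, 5.01 and 2.69 FPKM with Ang II + Tec. Vim, vimentin, was at 135, 179 and 44.9 FPKM and at 33.6, 70.9 and 43.1 FPKM. The 8 genes themselves lay at 0.30 (Dcn and Ogn) to 1.22 (Fmod) from their own median.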

How the data were processed

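Heart RNA of 3 mice per group was examined. The deposited values are FPKM per gene and library. The authors trimmed reads with Cutadapt and checked them with FastQC. The submitters' processing notes list Bowtie 0.12.2, HISAT2 2.0, StringTie 1.3.0 and the build mm8, without their roles. The coordinates, however, equal GENCODE release M21 on GRCm38 for 27947 of 30832 shared genes (90.6%). The labels name a NovaSeq instrument and the study's text a HiSeq. The lowest FPKM were compared between libraries (16 to 79 usable genes per pair) and gave no clear common step, so no relative depth is given. The study's text states a nominal depth, which gives no read total per library, so no interval from counts is given.

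Genes at 0.5 FPKM or more in at least 3 of 6 libraries (13089) were fitted as log2(FPKM + 1) with limma 3.58.1 in R 4.3.3 (eBayes with trend), Ang II + Tec against Ang II, with Benjamini-Hochberg adjustment over all of them. Calls needed an adjusted p under 0.05 with a log2 fold change of 1 or more in either direction. An exact permutation test of 3 against 3 cannot go below 0.1. The fit was tested on simulated data with noise independent between genes and libraries. It recovered 193 of 200 genes given a log2 fold change of 2 in either direction, with 5 false calls. Such data hold no shift shared by the genes of a library, so this check does not cover the position of Ang II replicate 3. Tables and figures were made with pandas 2.3.3 and matplotlib 3.10.9 in Python 3.11.15.

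The 8 genes and the gene lists were chosen with earlier results of these data known. Named are the 8, the genes next to them, of each gene list the 3 most abundant tested genes and the 2 with the largest absolute difference (no listed gene was called), of each marker list the most abundant gene (1 list is not reported here), and the 10 genes most like the 8. Myl7, Pdgfra and the genes counted singly in the text beyond that rule were chosen after their values were seen. Alternatives changed the pseudocount, the filter, the scaling, the replicate block, the variance trend and the library weights, and left out each library in turn. A term for libraries with Myl7 above 100 FPKM was added after seeing the data, as were the counts of the gene lists under 3 of the alternatives.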

Additional observations from a re-analysis of the deposited data

How the results depend on the processing

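The number of SLRP genes differentially expressed was 0 under all alternatives except library weights (4, beside 3.99% of all tested genes, from weights whose estimation stopped before it converged) and the omission of Ang II replicate 3 (6, beside 4.26%, in a range of 0 to 6 over omitted libraries, limma). At an unadjusted p under 0.05 it was 3 of 8, beside 16.5%, with 2 after median of ratios scaling or quantile normalization (Ogn was no longer among them), 6 under library weights, beside 42.3%, and 1 to 7 over omitted libraries, beside 6.29% to 39.3%, the highest of both without Ang II replicate 3. It was 1 without Ang II replicate 1 or 2 or Ang II + Tec replicate 1 or 3. The count lower without overlap was 1, beside 18.9%, and 1 to 7 over omitted libraries, beside 19.9% to 53.7%, with 2 without Ang II + Tec replicate 2. The median log2 fold change ran from -1.71 to -0.76 over omitted libraries and was -0.71 with the Myl7 term, which was chosen after seeing the data. The difference in mean log2 summed FPKM was -1.11 and ran from -1.74 to -0.73, and that in the share of Dcn was 13.01 percentage points and ran from 10.01 to 17.5. Dcn, Bgn, Aspn, Lum, Fmod and Ogn were lower with Tec in all 17 alternatives. Omd turned to 0.039 after quantile normalization and 0.11 with the Myl7 term, and Prelp to 0.13 with that term. Over omitted libraries Omd ran from -0.35 to 0.078 and Prelp from -1.02 to 0.052. The causes were not tested. With the replicate block, 0 of 8 were called and 4 were at an unadjusted p under 0.05, beside 22.9% of all tested genes, at a median of -1.11, and 22 of all genes were called in place of 21. Same-numbered libraries correlated at -0.04, 0.43 and 0.38 in their deviations from group means, and not every library correlated best with its own number. Deviations from the mean of 3 libraries depend on each other, so these values cannot decide whether same-numbered libraries were handled together. The labels give a number only. FPKM do not hold the reads per library and so give no limit for genes listed at 0.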
